A study of Homo sapiens with 4 samples.

Results

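The 39 genes described here encode phase II drug-metabolizing enzymes: 11 UDP-glucuronosyltransferases (UGTs), 7 sulfotransferases (SULTs), 12 soluble glutathione S-transferases (GSTs, of which GSTK1 is mitochondrial), 3 membrane-bound glutathione transferases (MGSTs), the N-acetyltransferases NAT1 and NAT2, the methyltransferases NNMT and TPMT and the epoxide hydrolases EPHX1 and EPHX2. They were chosen by name from the 46427 genes measured, with earlier results of these data known. Their RNA was measured in Huh7 and HepG2, established lines labelled as hepatocellular carcinoma (HCC), 48 h after transfection with a negative control siRNA (NC-siRNA, genotype labelled WT) or an siRNA against the ubiquitin ligase gene COP1 (COP1-siRNA, genotype labelled COP1 Knockdown), each at 20 nM. There was 1 library of polyadenylated RNA per line and siRNA, 4 in all, and the labels put all 4 in the same batch. No condition had a replicate, so within a line the siRNAs could be compared by value only. A knockdown lowers a transcript for a time and leaves the gene in place, and each line stands for the tumour of 1 person.

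Many phase II enzymes attach a polar group to a drug, hormone, bile pigment or reactive by-product, which makes it easier to excrete in bile or urine. UGTs transfer glucuronic acid from UDP-glucuronic acid in the endoplasmic reticulum, SULTs transfer sulfate from PAPS in the cytosol, GSTs add glutathione to electrophiles, NATs acetylate, methyltransferases use S-adenosylmethionine, and epoxide hydrolases open epoxides with water. The liver is the main site of these reactions, and several of the genes belong to clusters of closely related copies.

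Gene coordinates are those of the files, on GRCh38. Expression is given in TPM, a read-derived transcript abundance that corrects for gene length and sums to the same total in every library. In the files, hepatocyte genes were present in all 4 libraries, with albumin (ALB) between 1510 and 8120 TPM, and the leukocyte marker PTPRC was listed at 0. The lowest hepatocyte markers in HepG2 were TTR, with 20.9 and 27.9 TPM under NC-siRNA and COP1-siRNA, and TF, with 28.3 and 36.0 TPM. The other hepatocyte markers listed had at least 234 TPM there. The endothelial marker VWF did not exceed 0.088 TPM and the stromal marker COL1A2 did not exceed 0.385 TPM, whereas CD68 lay between 15.6 and 58.2 TPM, PECAM1 reached 7.36 TPM in Huh7 and COL1A1 reached 2.47 TPM in HepG2. In Huh7 the COP1 transcript went from 19.7 TPM under the control siRNA to 6.18 TPM, which left 31.4%. In HepG2 it went from 26.9 to 16.1 TPM, which left 59.9%, so the lines differed in how far the target was lowered. The COP1-siRNA library was deeper than the NC-siRNA library by 1.18-fold in Huh7 and 1.26-fold in HepG2, as read from coverage per TPM. In such bulk samples, fewer cells of a kind and less RNA per cell cannot be told apart.

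Of the 39 members, 34 reached 1 TPM in at least 1 library and were tested. UGT1A4, UGT2B17, SULT1B1, SULT1E1 and NAT2 stayed under 1 TPM in all 4 libraries. Between 27 and 31 members reached 1 TPM in a given library, 15 to 19 reached 10 TPM and 4 or 5 reached 100 TPM. GSTP1, GSTO1 and MGST1 were above 100 TPM in every library. Together the members held 0.452% and 0.479% of all TPM in Huh7 with NC-siRNA and COP1-siRNA, and 0.213% and 0.218% in HepG2.

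**Figure D1:**
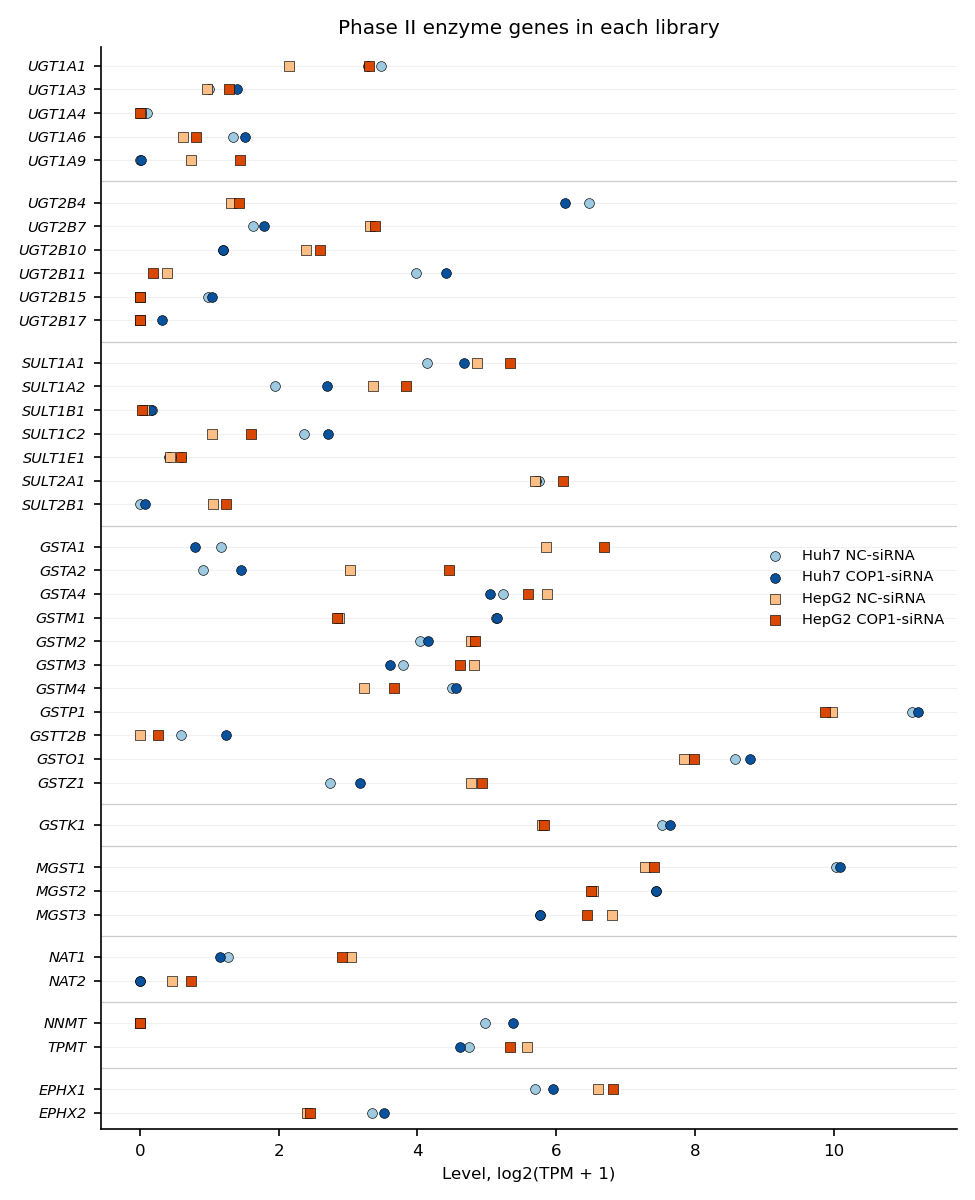
Level of each of the 39 members as log2(TPM + 1), 1 point per library, with circles for Huh7, squares for HepG2, pale points for NC-siRNA and dark points for COP1-siRNA, in blocks by enzyme class. Points of 1 line lie close together for most genes, while NNMT, UGT2B4, UGT2B11, MGST1 and GSTM1 lie far higher in Huh7 and GSTA1 and GSTA2 far higher in HepG2.

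The first question was whether lowering COP1 changed these genes within a line. On the log2(TPM + 1) scale, 0 of the 32 members tested in Huh7 differed by 2-fold between the siRNAs. Of the 13000 genes tested there, 0.638% were 2-fold or more above NC-siRNA and 0.446% as far below it. The differences of the members ran from −0.38 to 0.75 with a median of 0.093, against −0.001 over all genes. On the same scale GSTA2 and UGT1A1 were at least 2-fold higher among the 29 members tested in HepG2, against 0.54% of the 14456 genes tested. There 0 members were 2-fold lower, against 0.394%. There the differences ran from −0.35 to 1.43 with a median of 0.138, against −0.008 over all genes. Positive differences were 22 of 32 in Huh7 and 21 of 29 in HepG2, most of them small. Over all genes 6481 of 13000 were positive in Huh7 and 6988 of 14456 in HepG2. Some members share sequence with each other, so they are not independent counts. No error can be given for any of these differences.

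UGT1A1, the enzyme that glucuronidates bilirubin, lies at chr2:233760270-233773300. It had 10.1 TPM in Huh7 with NC-siRNA, 8.76 TPM with COP1-siRNA, and 3.42 and 8.83 TPM in HepG2 in the same order, in which pairs of values are given throughout. The HepG2 NC-siRNA library was the low one of the 4, and the other three lay close together. The log2 difference was −0.18 in Huh7 and 1.15 in HepG2. Read depth per base of UGT1A1 in HepG2 was 8.51 and 27.6. The neighbouring UGT1A genes begin at different first exons and share the rest of the transcript, so reads of the shared part could be given to any of them. Of the 100-base windows of the UGT1A1 transcripts in the GENCODE 29 annotation, 33.2% to 60.5% also occurred in another gene, depending on the transcript, and for UGT1A3 75.6% did. Summed over the 5 UGT1A members, the level was 12.7 and 12.3 TPM in Huh7 and 5.59 and 12.8 TPM in HepG2, a log2 difference of −0.04 and 1.06.

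Among the other UGT1A members, UGT1A9, which acts on phenols and fatty acids, was listed at 0 and at 0.00645 TPM in Huh7, and had 0.666 and 1.72 TPM in HepG2. Its log2 difference in HepG2 was 0.71 and rests on a read depth of 1.66 and 5.36 per base. With a pseudocount of 0.1 that difference was 1.25, past 2-fold. UGT1A3, which also acts on bile acids, lay between 0.958 and 1.63 TPM, with the COP1-siRNA library above the NC-siRNA library in each line. UGT1A6, which acts on small planar phenols, lay between 0.544 and 1.87 TPM in the same order. These 3 genes were near the 1 TPM minimum.

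GSTA2, an alpha-class transferase with a preference for organic peroxides, had 0.884 and 1.74 TPM in Huh7 and 7.15 and 21.0 TPM in HepG2. The gene lies at chr6:52750087-52763475, and GSTA1 beside it at chr6:52791371-52803827. The HepG2 COP1-siRNA library was the highest of the 4, at 293% of its NC-siRNA library. The log2 difference was 1.43 in HepG2 and 0.54 in Huh7. Its neighbour GSTA1, the main alpha-class transferase of liver, had 56.9 and 102 TPM in HepG2 and 1.25 and 0.731 TPM in Huh7. The GSTA1 difference of 0.84 in HepG2 did not reach 2-fold, and that of −0.38 in Huh7 had the other sign. GSTA1 shared 12% of its windows with GSTA2. Their sum was 64.0 and 123 TPM in HepG2, a log2 difference of 0.93, which is under 2-fold.

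GSTA1, GSTA2 and UGT1A1 had the 3 largest differences between the siRNAs in HepG2, and their promoters are therefore shown. The 250 bases before each RefSeq transcription start (GRCh38.p14) are given 5′ to 3′ on the strand of the gene, with the letters TATAAA, or their reverse complement, in capitals. GSTA1 is at chr6:52803817-52804066 on the minus strand, GSTA2 at chr6:52763476-52763725 on the minus strand and UGT1A1 at chr2:233760020-233760269 on the plus strand.
GSTA1: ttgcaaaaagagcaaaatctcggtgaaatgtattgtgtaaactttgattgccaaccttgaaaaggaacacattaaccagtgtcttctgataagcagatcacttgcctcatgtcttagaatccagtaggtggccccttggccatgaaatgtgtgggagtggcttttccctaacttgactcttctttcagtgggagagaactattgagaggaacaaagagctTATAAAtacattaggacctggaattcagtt
GSTA2: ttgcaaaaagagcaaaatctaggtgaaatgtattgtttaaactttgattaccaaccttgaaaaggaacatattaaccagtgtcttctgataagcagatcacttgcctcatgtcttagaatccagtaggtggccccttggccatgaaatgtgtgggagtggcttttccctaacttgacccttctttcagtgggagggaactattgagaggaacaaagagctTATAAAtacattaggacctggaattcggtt
UGT1A1: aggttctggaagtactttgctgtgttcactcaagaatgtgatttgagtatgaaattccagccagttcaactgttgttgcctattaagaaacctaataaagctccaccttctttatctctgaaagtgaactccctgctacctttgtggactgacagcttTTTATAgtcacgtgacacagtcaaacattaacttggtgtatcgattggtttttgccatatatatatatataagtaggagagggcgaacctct

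The GSTA1 and GSTA2 stretches were the same at 243 of 250 bases, 97.2%, with TATAAA beginning 30 bases before the start in both. In UGT1A1 the match was on the other strand, began 92 bases before the start and is a match of letters only. A run of alternating a and t lies nearer to the UGT1A1 start. It does not hold the exact letters TATAAA and was therefore not marked or counted. Promoters were found for 29 of the 39 members, and both strands were searched in the 250 upstream bases. TATAAA was present in 8 of the 29, namely UGT1A1, UGT2B10, UGT2B11, SULT1B1, SULT1E1, GSTA1, GSTA2 and GSTO1, which is 27.6%, against 10.7% of all 35116 promoters and 6.26% of the 16774 promoters of genes tested here. The 29 include UGT1A4, SULT1B1 and SULT1E1, which were not tested, so they are not a part of the tested genes. GSTA1 and GSTA2 are near copies, so the 8 are not independent counts. The antioxidant response element core TGACNNNGC was present in 24.1%, against 10.9% of all and 11.6% of tested genes' promoters, and AGTTCA, a half-site of nuclear receptors, in 24.1%, against 8.8% and 6.38%. GCGTG, the core that the aryl hydrocarbon receptor binds, was present in 27.6%, against 32.2% and 42.9%, and the GC box GGGCGG in 44.8%, against 42.6% and 62.3%. No match of 1 of these 5 motifs overlapped a match of another in the members. GSTA1 and GSTA2 held TATAAA and none of the other 4, and UGT1A1 held TATAAA and AGTTCA. The motifs were picked with the values known, and a match of letters does not show that a factor was bound.

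**Figure D2:**
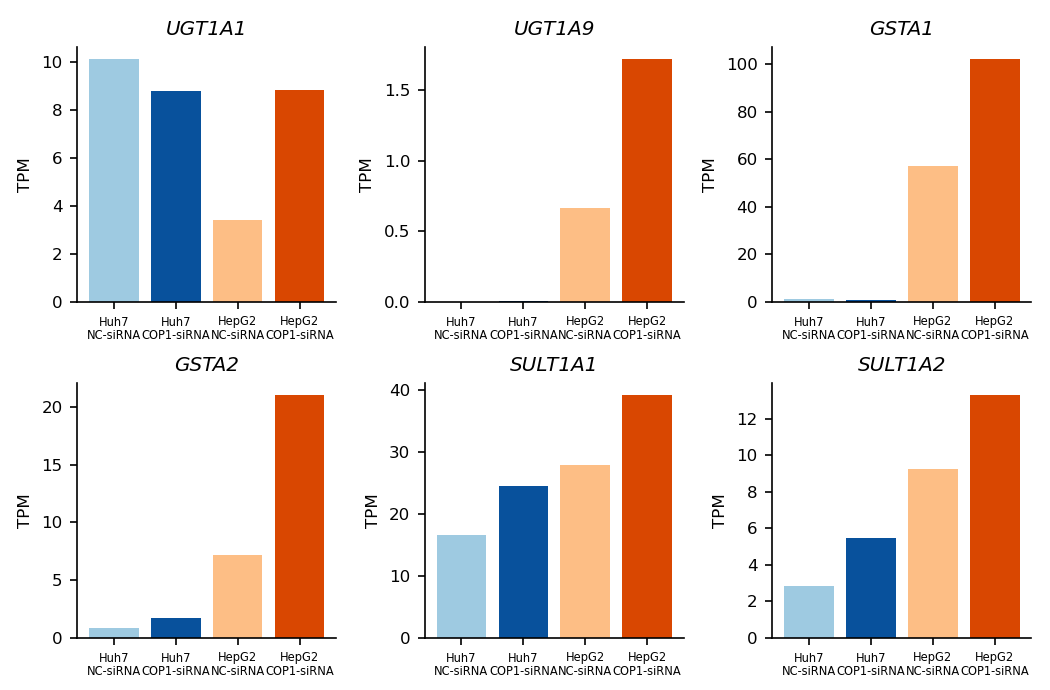
TPM of 6 members in each of the 4 libraries, 1 bar per library and no error bars since no condition had a replicate; each panel has its own axis from 0. UGT1A1 and UGT1A9 were higher with COP1-siRNA in HepG2, GSTA1 and GSTA2 were mainly present in HepG2, and SULT1A1 and SULT1A2 were higher with COP1-siRNA in each line.

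The 2 SULT1A members had higher values with COP1-siRNA in each line. SULT1A1 (chr16:28605587-28623586), the main phenol sulfotransferase of liver, had 16.6 and 24.6 TPM in Huh7 and 27.9 and 39.2 TPM in HepG2, a log2 difference of 0.54 and 0.48. SULT1A2, its close copy, had 2.85 and 5.49 TPM in Huh7 and 9.24 and 13.3 TPM in HepG2, a log2 difference of 0.75 and 0.48. Their neighbours in the same family, SULT1A3 and SULT1A4, which sulfate catecholamines, had 2.66 and 4.51 TPM, and 2.71 and 5.95 TPM, in Huh7. In HepG2 SULT1A3 had 18.5 and 30.6 TPM and SULT1A4 had 19.4 and 30.1 TPM. These 4 genes are closely related copies. SULT1A1 shared 7.26% to 14.1% of its windows with other genes and SULT1A2 shared 4.65% to 7.37%, while this was not computed for SULT1A3 and SULT1A4. How reads of the shared stretches were given to each gene is uncertain. Summed over SULT1A1 and SULT1A2, the level was 19.5 and 30.1 TPM in Huh7 and 37.1 and 52.4 TPM in HepG2. SULT1C2 followed the same order, with 4.14 and 5.53 TPM in Huh7 and 1.06 and 2.02 TPM in HepG2.

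A change common to both lines was tested with limma on log2(TPM + 1), with the line as a term and the Benjamini-Hochberg adjustment over all 15486 genes tested. The fit has 1 residual degree of freedom per gene, which is the difference between the lines in their response to the siRNA. Its error is built on that difference, moderated over all genes, and does not measure the spread between cultures of a condition. With an adjusted p under 0.05, 0 of the 34 members were called, and 0.0% of all genes were. At an unadjusted p under 0.05, 7 members were higher and 1 was lower with COP1-siRNA, against 4.62% and 6.17% of all genes. The 7 were SULT1A1, SULT1A2, SULT1C2, GSTA2, GSTO1, GSTZ1 and EPHX1, and the lower one was GSTA4. The member with the smallest unadjusted p was SULT1A1, with a log2 difference of 0.51 ± 0.09 (SE, adjusted p = 0.18), higher in both lines. SULT1A2 had an adjusted p of 0.2 and GSTA2 of 0.22 in the same limma fit. No other tool was run on this comparison.

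Of the 27 members tested in both lines, 15 were higher with COP1-siRNA in each and 6 were lower in each, or 55.6% and 22.2%, against 29.2% and 31.0% of the 11970 genes tested in both. The 15 include UGT2B10, whose difference in Huh7 was 0.00. Among those with lower values, GSTA4, which conjugates the lipid peroxidation product 4-hydroxynonenal, had 36.8 and 32.1 TPM in Huh7 and 57.5 and 47.1 TPM in HepG2. TPMT, which methylates thiopurine drugs, had 25.9 and 23.5 TPM, and 47.0 and 39.2 TPM. MGST3 had 111 and 86.4 TPM in HepG2 and 53.5 and 53.2 TPM in Huh7. The hepatocyte markers moved by value in HepG2 as well: all 6 were higher with COP1-siRNA, by 0.08 to 0.44 on the log2 scale with a median of 0.37, and 1 of 6 was in Huh7, where the median was −0.085. Their part in the values of GSTA1, GSTA2 and UGT1A1 was not tested.

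**Figure D3:**
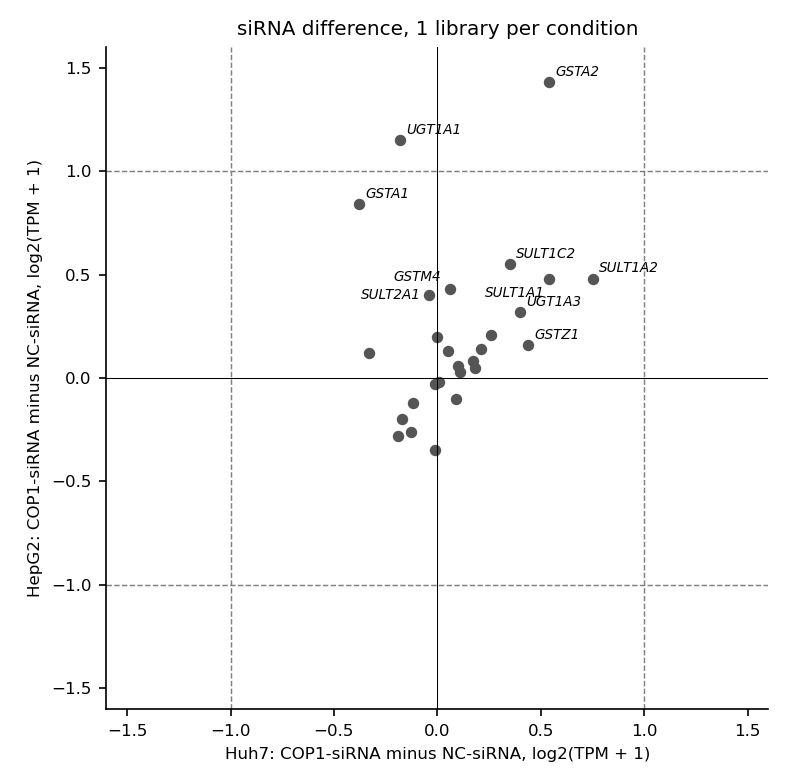
Difference between COP1-siRNA and NC-siRNA on the log2(TPM + 1) scale for the 27 members tested in both lines, Huh7 on the horizontal and HepG2 on the vertical axis, with dashed lines at 2-fold and names for differences of about 0.4 or more. GSTA2 and UGT1A1 lie beyond 2-fold in HepG2, at 1.43 and 1.15, and no member does in Huh7.

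The second comparison was between the lines, with 2 libraries in each and the siRNA as a term in the same limma fit. Each SE and p below therefore rests on how alike the lines responded to the siRNA, not on replicates. At an adjusted p under 0.05, 31 of the 34 members tested differed, 15 higher in Huh7 and 16 higher in HepG2. Over all genes 27.3% were higher in Huh7 and 51.2% higher in HepG2, so most genes passed and a call by itself says little. With a 2-fold difference required as well, a rule added after that share was seen, 11 members were higher in Huh7 and 10 higher in HepG2, or 61.8% of those tested, against 13.7% and 25.8% of all genes. UGT1A1, UGT1A3 and SULT2A1 were not called. The median of all genes was −0.36 on the log2 scale, Huh7 minus HepG2, and the differences below include this shift. Median-of-ratios scaling moved that median to −0.07 and the split of all genes from 4223 higher and 7933 lower in Huh7 to 5605 and 6244, while the members split 16 and 16. No called member changed direction under it. Left with 3 libraries and the line as the only term, calls were lost in some setting for EPHX1, GSTA2, GSTA4, GSTM4, GSTO1, GSTT2B, GSTZ1, MGST3, SULT1A1, SULT1A2, SULT1C2, TPMT, UGT1A6 and UGT1A9.

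**Figure D4:**
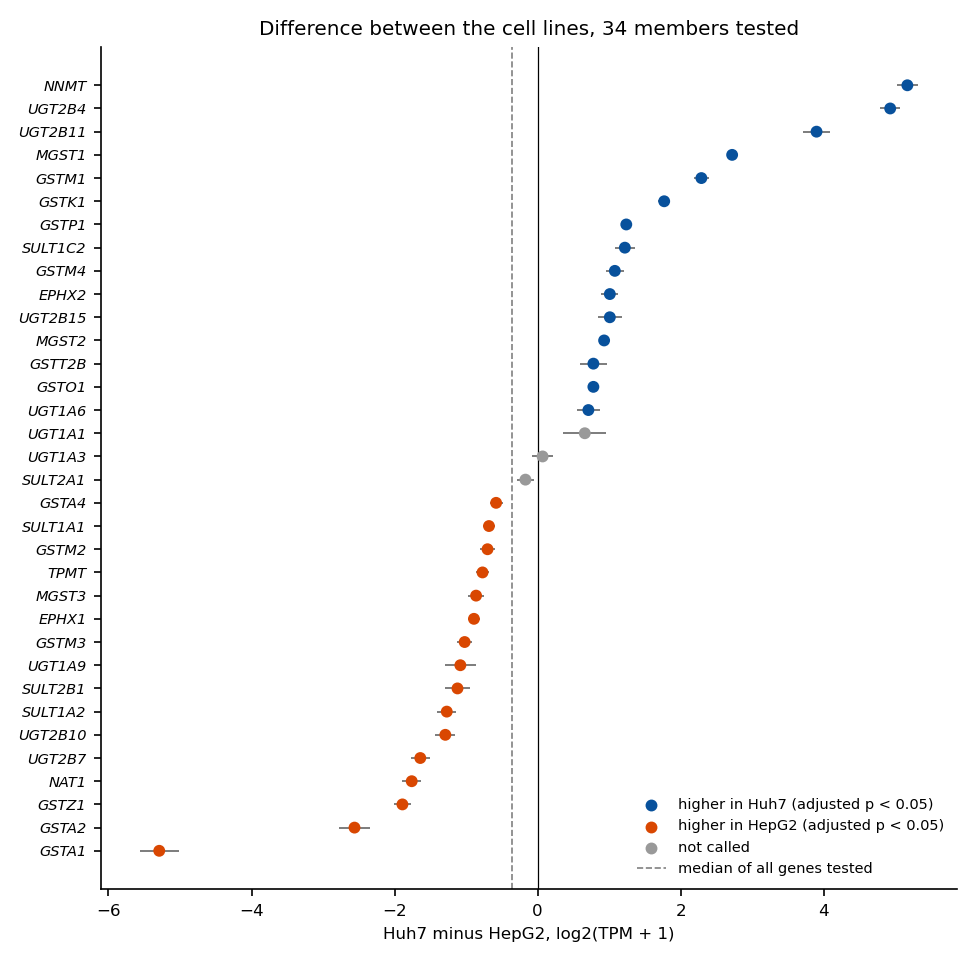
Difference between Huh7 and HepG2 on the log2(TPM + 1) scale for the 34 members tested, as the limma estimate over 2 libraries per line with its SE. The SE rests on the difference between the lines in the siRNA response, moderated over all genes. The dashed line is the median of all genes tested, −0.36. NNMT at 5.17 and GSTA1 at −5.29 stand at the ends, and 3 genes (grey) were not called.

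The UGT2B genes, which glucuronidate steroids, bile acids and many drugs, differed between the lines in both directions. UGT2B4 (chr4:69480165-69526014), which acts on bile acids, had 87.5 and 69.2 TPM in Huh7 and 1.48 and 1.69 TPM in HepG2. The groups were far apart, by 4.93 ± 0.14 on the log2 scale (SE, limma adjusted p = 3.6e-06). UGT2B11 had 14.8 and 20.3 TPM in Huh7 against 0.317 and 0.143 TPM in HepG2, a difference of 3.90 ± 0.19. Both HepG2 values lie under the pseudocount of 1, and with a pseudocount of 0.1 the difference was 5.77. UGT2B15, which acts on androgens, had 0.983 and 1.05 TPM in Huh7 and was listed at 0 in HepG2. Its difference of 1.01 depends on the pseudocount of 1: it was 3.48 with a pseudocount of 0.1 and 0.51 with FPKM. UGT2B7, which glucuronidates morphine, went the other way, with 2.09 and 2.47 TPM in Huh7 and 8.94 and 9.49 TPM in HepG2 (−1.64 ± 0.13). UGT2B10, an N-glucuronidating enzyme, was also higher in HepG2, with 4.23 and 5.03 TPM against 1.29 and 1.29 TPM (−1.29 ± 0.14). All 5 UGT2B members tested passed with a 2-fold difference, 3 higher in Huh7 and 2 in HepG2, where 39.5% of all genes passed. UGT2B4 and UGT2B7 shared no 100-base window with another gene, and UGT2B15 shared 12.7% with UGT2B17.

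The make-up of the UGT family differed between the lines. UGT2B4 was 73.3% and 64.8% of the summed TPM of the 11 UGT members in Huh7 and 7.18% and 5.80% in HepG2. UGT2B7 was 1.75% and 2.32% in Huh7 and 43.5% and 32.6% in HepG2. UGT1A1 was 8.45% and 8.2% in Huh7, and 16.6% with NC-siRNA and 30.4% with COP1-siRNA in HepG2. The family summed to 119 and 107 TPM in Huh7 and to 20.6 and 29.1 TPM in HepG2. UGT1A1 itself differed between the lines by 0.66 ± 0.30, which was not called (limma adjusted p = 0.087), with 8.76 TPM in Huh7 and 8.83 TPM in HepG2 under COP1-siRNA.

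**Figure D5:**
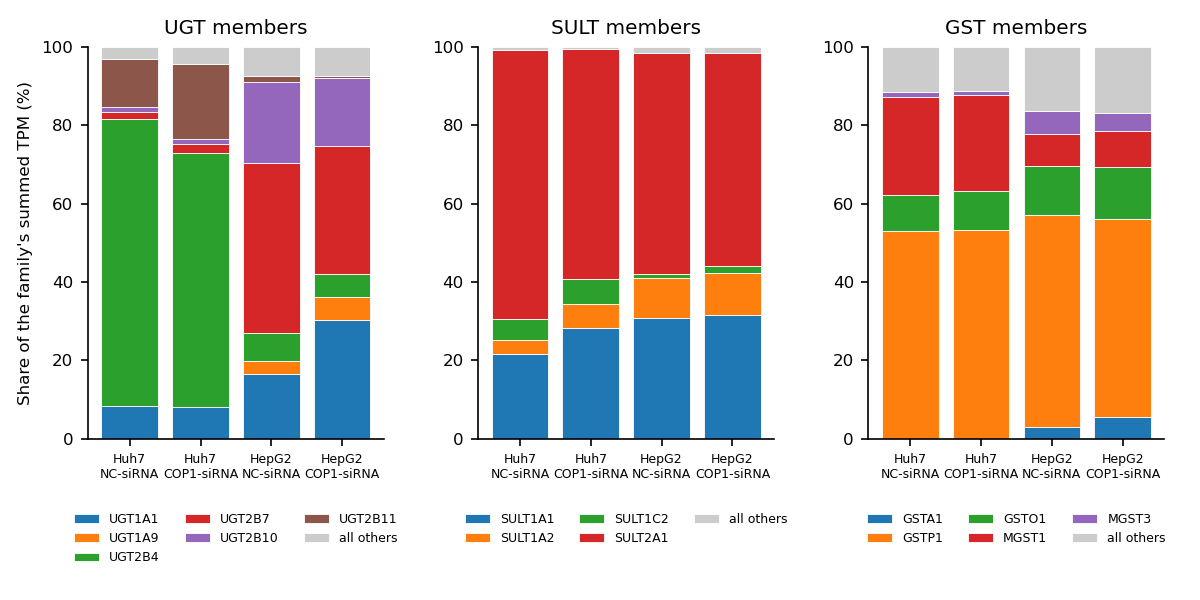
Share of each family's summed TPM, in percent, taken by each member that reached 5% in some library, with the rest in grey, for the 11 UGT, 7 SULT and 15 GST and MGST members in the 4 libraries. UGT2B4 filled most of the UGT bar in Huh7 and UGT2B7, UGT1A1 and UGT2B10 most of it in HepG2, whereas SULT2A1 and GSTP1 led their families in both lines.

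Of the SULTs, SULT2A1, which sulfates DHEA and bile acids, was the highest in every library, with 52.7 and 51.2 TPM in Huh7 and 51.0 and 67.4 TPM in HepG2. These levels overlapped, and the difference of −0.17 ± 0.12 was not called. SULT1A2 (−1.27 ± 0.13) and SULT1A1 (−0.68 ± 0.09) were higher in HepG2. The SULT1A1 call was lost without the siRNA term (limma adjusted p = 0.055) and without any 1 of the libraries, where the value ran from −0.95 to −0.41, and the SULT1A2 call was lost without 3 of the 4, with −1.51 to −0.90. SULT2B1, a cholesterol sulfotransferase, was listed at 0 and 0.051 TPM in Huh7 and had 1.08 and 1.37 TPM in HepG2. SULT1C2 was the only SULT member called higher in Huh7 (1.22 ± 0.14). SULT1C4, which is not a member, had 43.8 and 43.4 TPM in Huh7 and 2.59 and 1.59 TPM in HepG2.

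Of the alpha-class GSTs, GSTA1 and GSTA2 had the largest differences of any member in favour of HepG2. GSTA1 differed by −5.29 ± 0.27 (limma adjusted p = 1.9e-05) and GSTA2 by −2.56 ± 0.22, from the levels given above, whereas GSTA4 differed by −0.58 ± 0.09. The mu class, whose GSTM1 is absent from the genome of many people, was mixed. GSTM1 had 34.1 and 34.3 TPM in Huh7 and 6.28 and 6.16 TPM in HepG2 (2.29 ± 0.10), and GSTM4 was higher in Huh7 as well (1.08 ± 0.13). GSTM2, with 15.5 and 16.7 TPM against 26.3 and 27.4 TPM, and GSTM3, with 12.8 and 11.2 TPM against 27.1 and 23.5 TPM, were higher in HepG2. GSTM1 and GSTM2 share up to 43.3% and 63.6% of their windows with other genes, and GSTM4 shares 2.29% to 54.8%, depending on the transcript. The division of reads between GSTM1, GSTM2 and GSTM4 is therefore uncertain, while GSTM3 shared no window. GSTM1, GSTM2 and GSTM4 lie next to each other on chromosome 1 and summed to 71.3 and 73.6 TPM in Huh7 and to 41.0 and 45.2 TPM in HepG2.

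GSTP1 (chr11:67583812-67586653), the pi-class transferase that is low in normal hepatocytes and high in many tumours, was the most abundant member in all 4 libraries, with 2240 and 2380 TPM in Huh7 and 1010 and 941 TPM in HepG2 (1.24 ± 0.08). It ranked 54 among all genes in Huh7 and 138 in HepG2 with NC-siRNA. GSTO1, an omega-class transferase that reduces disulfides, dehydroascorbate and arsenic species, had 382 and 443 TPM against 229 and 252 TPM. GSTK1 had 183 and 198 TPM against 54.3 and 55.6 TPM (1.77 ± 0.08). GSTZ1, which degrades tyrosine as maleylacetoacetate isomerase, was higher in HepG2, with 26.3 and 29.4 TPM against 5.68 and 8.05 TPM (−1.89 ± 0.12). GSTT2B had 0.507 and 1.36 TPM in Huh7, a plain ratio of 2.68 near the 1 TPM minimum. It was listed at 0 in HepG2 with NC-siRNA, and 72.2% to 80.0% of its windows are those of GSTT2.

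MGST1 (chr12:16347142-16377192), which protects membranes from peroxides, had 1050 and 1090 TPM in Huh7 and 154 and 169 TPM in HepG2 (2.72 ± 0.07, limma adjusted p = 3.1e-06). MGST2, which can make leukotriene C4, was also higher in Huh7 (0.93 ± 0.07), with 173 and 172 TPM against 91.5 and 89.7 TPM. MGST3 was higher in HepG2 (−0.86 ± 0.11). For these 3 genes the deposited coverage was far lower than the TPM implies, between 0.0568 and 0.184 reads per base for each TPM, where GSTP1 had 2.49 to 3.16. By TPM, MGST1 was 25.0% of all GST and MGST members in Huh7 with NC-siRNA and 8.27% in HepG2, and by coverage it was 2.02% and 0.608%. The place of the MGST genes among the others therefore depends on the column, whereas their difference between the lines kept its direction in both.

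Of the remaining classes, NNMT (chr11:114257806-114313536), which methylates nicotinamide, had 30.5 and 40.4 TPM in Huh7 and was listed at 0 in both HepG2 libraries. The limma difference of 5.17 ± 0.15 depends on the pseudocount of 1, so no fold is given. TPMT was higher in HepG2 (−0.77 ± 0.09). NAT1, which acetylates arylamines, had 7.2 and 6.54 TPM in HepG2 and 1.41 and 1.22 TPM in Huh7 (−1.76 ± 0.13), while NAT2 was listed at 0 in Huh7 and had 0.375 and 0.659 TPM in HepG2. EPHX1, the microsomal epoxide hydrolase, had 50.7 and 61.0 TPM in Huh7 and 96.4 and 112 TPM in HepG2 (−0.89 ± 0.08). EPHX2, the soluble enzyme that hydrolyses epoxides of fatty acids, had 9.17 and 10.5 TPM in Huh7 and 4.29 and 4.48 TPM in HepG2 (1.01 ± 0.12). The 2 epoxide hydrolases thus differed between the lines in opposite directions.

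Lists of other genes of the same reactions were set beside the members. Of 33 other conjugating enzymes with values, 16 reached 1 TPM. All 16 were called between the lines, 8 in each direction, where 78.5% of all genes were called. After SULT1C4 (3.87) the largest differences were those of UGT8, a ceramide galactosyltransferase, with 1.38 and 2.54 TPM in Huh7 and 17.1 and 19.0 TPM in HepG2 (−2.71), and SULT1A3 (−2.47). Of 15 genes that supply the cosubstrates, 8 were called higher in Huh7 and 3 higher in HepG2, against 27.3% and 51.2% of all genes. UGDH, which makes UDP-glucuronic acid, had 194 and 186 TPM in Huh7 and 51.3 and 65.6 TPM in HepG2. PAPSS2, which makes PAPS, had 55.5 and 62.6 TPM against 8.0 and 8.62 TPM. MAT1A, which makes S-adenosylmethionine in adult liver, had 0.761 and 1.48 TPM against 10.3 and 16.1 TPM.

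Of 10 transcription factors and partners known to act on these genes, 8 were tested. Of the 8, 5 were called higher in Huh7 and 2 higher in HepG2, against 27.3% and 51.2% of all genes. The bile acid receptor NR1H4 had 93.2 and 77.3 TPM in Huh7 and 6.11 and 7.57 TPM in HepG2, the aryl hydrocarbon receptor AHR 69.5 and 56.2 TPM against 6.79 and 7.53 TPM, and the hepatocyte factor HNF4A 64.6 and 58.9 TPM against 9.13 and 12.1 TPM. The drug sensors NR1I2 and NR1I3 stayed under 1 TPM in all 4 libraries. On the log2(TPM + 1) scale no gene of these 3 lists reached 2-fold between the siRNAs in either line, while the plain TPM ratio in Huh7 was 2.2 for SULT1A4 and 2.11 for GLYATL1.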

How the data were processed

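RNA of Huh7 and HepG2 cells transfected with NC-siRNA or COP1-siRNA was sequenced from a stranded poly(A) library, 1 per condition, and groups were taken from the labels. Per the submitters' processing notes the genome was GRCh38 and the tools were FastQC 0.11.7, Trimmomatic 0.38, HISAT2 2.1.0, StringTie 2.1.3b and edgeR, in an order and with settings not given in the sources used here. The deposited TPM values are normalized within a library by the authors and sum to 1000000. The FPKM values the authors deposited are proportional to TPM within a library, at 0.406 to 0.433 of TPM for UGT1A1. A pseudocount of 1 therefore weighs more on FPKM than on TPM, so within a line the FPKM alternative acts as a larger pseudocount. The deposited coverage is the mean read depth over each base of a gene and is not scaled for depth. Read counts were not used here, so depth is known only in relative terms and no counting interval can be given. The deposited name column held no symbols: members were found by NCBI Gene number through the RefSeq table of GRCh38.p14, all 39 of them, and 96.3% of all 46427 genes matched. Lines of a repeated number were summed, and no member was repeated. GSTT1 was not analysed here, and 1 gene of the lists is not reported here.

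Within a line, log2((TPM + 1)/(TPM + 1)) was computed for genes of at least 1 TPM in at least 1 of the 2 libraries, and 2-fold was the threshold. Over the 4 libraries, limma 3.58.1 in R 4.3.3 was fitted to log2(TPM + 1) of 15486 genes with the line and the siRNA as terms, moderated variance with an intensity trend (median prior degrees of freedom 4.84) and the Benjamini-Hochberg adjustment, adjusted p under 0.05. Tested on simulated data for Huh7 against HepG2, the fit recovered 100 of 100 genes changed 2-fold and 100 of 100 changed 4-fold. It called 11 of 15286 unchanged genes. The changed genes were drawn only from genes well above 1 TPM, the noise was independent, and nearly all genes were unchanged. The simulation therefore gives no error rate for members near 1 TPM, or for data where 78.5% of genes were called. Sharing of 100-base windows was computed on GENCODE 29 transcripts, all coding transcripts of a member against those of every other gene. Promoters are RefSeq sequences. Python 3.11.15, numpy 2.4.6, pandas 2.3.3 and matplotlib 3.10.9 were used. Named members are those past 2-fold between the siRNAs, up to 12 with the largest difference between the lines in each direction, the highest of each class and those under 1 TPM throughout; of the other lists, up to 3 with the largest difference between the lines. Further genes were named after their values were seen. The members, lists and motifs were chosen with earlier results of these data known. Alternatives were a pseudocount of 0.1, no minimum, a minimum of 5 TPM, a 1.5-fold threshold, FPKM or coverage, and scaling by quantiles, upper quartiles or median-of-ratios. Further alternatives were no intensity trend, fewer terms, closely related genes summed and each library left out. The call with a 2-fold difference between the lines and the plain TPM ratio were added after the values were seen.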

Additional observations from a re-analysis of the deposited data

Results flagged for a closer look

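For UGT1A1 the values of the siRNA difference had opposite signs in the 2 lines, and the value in Huh7 was small. On the log2(TPM + 1) scale, COP1-siRNA minus NC-siRNA was 1.15 in HepG2 and −0.18 in Huh7, with 1 library per condition, and the difference between the lines was not tested.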

How the results depend on the processing

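Of the calls on members between the siRNAs, 0 in Huh7 became 1 with a pseudocount of 0.1 (GSTT2B, 1.26) and 2 with a 1.5-fold threshold (GSTT2B and SULT1A2). The 2 in HepG2 became 3 with a pseudocount of 0.1, where UGT1A9 was added at 1.25. They became 1 with FPKM, where UGT1A1 had 0.95, and 4 with a 1.5-fold threshold (GSTA1, GSTA2, UGT1A1 and UGT1A9). GSTA2 fell under 2-fold, at 0.93, when summed with GSTA1. Over both lines, 0 members became 1 with quantile normalization (SULT1A1, limma adjusted p = 0.04), and 0 under the other alternatives. Of all genes, the 141 past 2-fold in Huh7 became 390 with a pseudocount of 0.1, 76 with a minimum of 5 TPM, 57 with FPKM and 713 at 1.5-fold, and the 135 in HepG2 became 372, 55, 39 and 640. The limma fit over both lines called 0 genes, and 10 with a minimum of 5 TPM, 6 with median-of-ratios scaling, 135 with FPKM and 194 with quantile normalization. Between the lines, 26 to 33 members were called under the settings that kept all libraries, against 31, and 21 with a 2-fold difference required. Leaving out a library gave 22 to 24 members and 7534 to 9434 of all genes, against 12156. These fits had the line as the only term and set 1 library of a line, assumed to vary like the others, against 2 of the other line that differ by siRNA, so fewer samples and the lost term cannot be told apart. With all 4 libraries and the line only, 30 members and 11483 genes were called. SULT1A1 and GSTA4 lost the call without any 1 of the 4 libraries, and 12 other members without some. UGT1A1 was called without the HepG2 COP1-siRNA library (1.24) and with median-of-ratios (0.94), upper-quartile (0.85), FPKM (0.51) and quantile (1.00) values. Summing closely related genes turned the direction for UGT1A9 (0.50 for the UGT1A sum, Huh7 higher) and GSTM2 (0.74 for the sum with GSTM1 and GSTM4). Each sum holds genes that are higher in Huh7. Keeping repeated Gene numbers apart could not change a member. The labels carry no replicate numbers. The siRNA fit pairs the libraries by line, and without the line term 0 members had an unadjusted p under 0.05, against 8. With no read counts and no replicates, values near 1 TPM, as for UGT1A3, UGT1A6, UGT1A9, UGT2B15, SULT2B1 and GSTT2B, have an unknown error.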
